A study of Mus musculus with 7 samples.

Results

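Interferon regulatory factors were followed in kidney RNA from mice treated with an Aurora kinase B inhibitor or with vehicle. The 8 genes Irf1, Irf2, Irf3, Irf4, Irf5, Irf7, Irf8 and Irf9 were taken by symbol from a table of 53465 genes, and all 8 passed the filter on low counts that left 15774 genes for testing. The samples were renal tissue of 7 MRL/lpr mice, of which 4 had been given AZD1152 (barasertib) and 3 vehicle, with 1 poly(A)-selected library per mouse. All 7 animals thus carried the Fas defect of the lpr strain, which develops lupus-like nephritis. Dose, schedule, age and sex are not in the labels. No untreated mice and no mice without the lpr allele were compared.

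Interferon regulatory factors are transcription factors that share a DNA-binding domain with conserved tryptophans. Irf3 and Irf7 are activated by phosphorylation downstream of nucleic acid sensors and switch on interferon genes, and Irf5 acts below Toll-like receptors in myeloid cells. Irf9 binds DNA within ISGF3, the complex that carries the type I interferon signal to its target genes. Irf1 is induced by interferon gamma and activates antigen presentation genes, and Irf2 binds similar sites and can oppose it. Irf8 and Irf4 act in myeloid cells and lymphocytes, where both pair with the factor PU.1, and Irf4 is also needed by plasma cells. Variants near the human gene IRF5 are associated with lupus.

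Known regulation of these genes runs through short motifs near their starts, and 3 of the 8 genes held such letters in the 250 bases before a RefSeq start (GRCm38.p6). The promoters of Irf1, Irf2 and Irf8 are printed because they are the ones with a match. The GENCODE start of Irf2, at 46739732, lies inside its printed window. Capitals mark every match, on either strand, to 1 of 4 motifs. These are the gamma-activated site (TTCNNNGAA, bound by STAT dimers), the interferon-stimulated response element (GAAA, any 2 bases, GAAA; bound by ISGF3 and by the factors themselves), the composite site of PU.1 with Irf4 or Irf8 (GGAA, any base, TGAAA), and the NF-kB consensus.
Irf1, chr11:53769764-53770013, plus strand: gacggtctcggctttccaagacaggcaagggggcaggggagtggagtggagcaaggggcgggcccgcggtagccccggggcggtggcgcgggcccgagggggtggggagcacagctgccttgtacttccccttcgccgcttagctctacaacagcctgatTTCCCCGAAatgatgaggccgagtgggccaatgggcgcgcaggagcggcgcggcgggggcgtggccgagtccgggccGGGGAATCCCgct
Irf2, chr8:46739495-46739744, plus strand: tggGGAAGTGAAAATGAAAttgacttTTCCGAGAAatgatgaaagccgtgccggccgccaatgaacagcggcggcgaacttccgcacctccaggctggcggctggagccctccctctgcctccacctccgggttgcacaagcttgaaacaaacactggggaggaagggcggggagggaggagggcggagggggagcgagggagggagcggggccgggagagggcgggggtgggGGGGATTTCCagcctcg
Irf8, chr8:120736108-120736357, plus strand: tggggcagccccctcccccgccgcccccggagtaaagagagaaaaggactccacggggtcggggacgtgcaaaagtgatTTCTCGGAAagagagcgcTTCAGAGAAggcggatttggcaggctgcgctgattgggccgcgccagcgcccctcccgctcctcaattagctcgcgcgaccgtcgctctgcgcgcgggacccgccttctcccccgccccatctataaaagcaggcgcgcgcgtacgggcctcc

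In the Irf1 promoter the capitals are a gamma-activated site at positions -90 to -82 from the start and an NF-kB match at -13 to -4. The Irf8 promoter had a pair of gamma-activated sites, at -171 to -163 and at -153 to -145. In the Irf2 promoter a composite site at -247 to -238 overlapped an interferon-stimulated response element at -241 to -232, and a gamma-activated site lay at -224 to -216 and an NF-kB match at -17 to -8. Among 32851 RefSeq promoters of the same length, 7.02% held a gamma-activated site, 2.98% an interferon-stimulated response element, 0.594% the composite site and 3.90% the NF-kB consensus. Counted by gene, a gamma-activated site was found in 3 of the 8 factors and in 8.13% of 27025 genes. The other 5 genes had no match in this window, and the additional starts listed for Irf1, Irf8 and Irf9 had none either. For Irf9 both windows lie after its GENCODE start at 55603571, the first beginning at 55603735. The bases before that GENCODE start were thus not searched. A match is a run of letters and not evidence of binding.

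The question was which kidney transcripts differed after AZD1152 in these lupus-prone mice. Of the 8 factors, Irf1, Irf5, Irf7, Irf8 and Irf9 were lower in treated kidneys (edgeR quasi-likelihood test, Benjamini-Hochberg adjusted p under 0.05 over all genes), and 0 were higher. Among all genes tested 4.81% were called lower, 3.02% higher and 7.83% in either direction. The remaining 3, Irf2, Irf3 and Irf4, did not pass the test. The median log2 fold change of the 8 factors was -0.76, beside -0.000597 for all 15774 genes. In 6 of the 8 every treated library lay below every vehicle library, a pattern seen in 11.6% of all genes tested (22.8% in either direction). In whole kidney RNA, fewer cells of a type and less RNA per cell cannot be told apart.

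**Figure D1:**
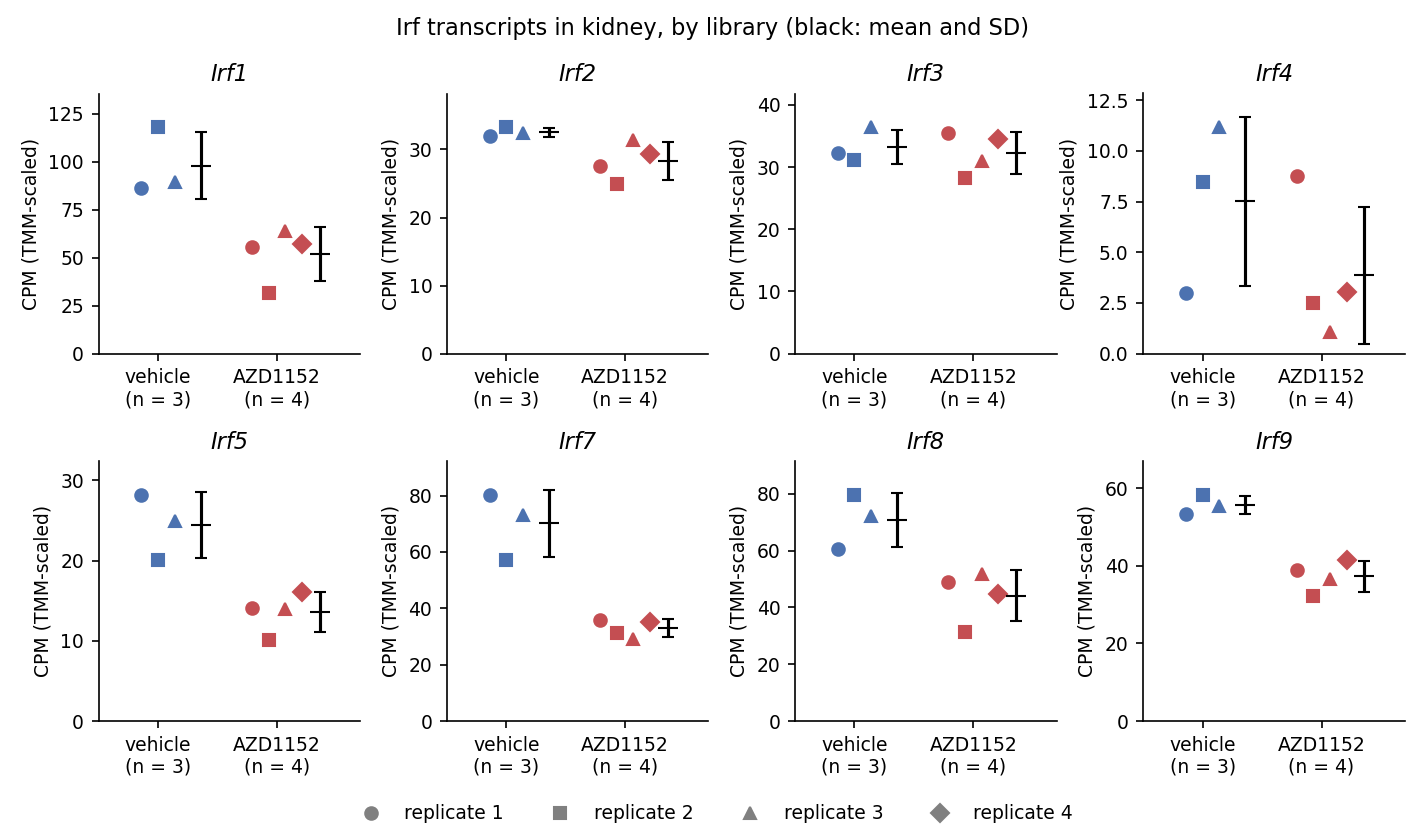
CPM (TMM-scaled, linear axis from 0) of the 8 factors in each of 3 vehicle and 4 AZD1152 libraries, with symbols for replicates and the mean and SD of each group in black. Irf1, Irf2, Irf5, Irf7, Irf8 and Irf9 show no overlap between the groups, though by less than 1 CPM for Irf2, Irf3 overlaps, and Irf4 spreads widely within each group.

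Irf7 had the smallest p of the 8 factors and is the inducible amplifier of type I interferon production. The gene (ENSMUSG00000025498) lies on chromosome 7 at 141262706 to 141266481, minus strand. Its level, in reads per 1000000 counted (CPM, TMM-scaled), was 80.2, 57.0 and 73.0 in vehicle replicates 1 to 3 and 35.996, 31.4, 29.2 and 35.1 in AZD1152 replicates 1 to 4. All treated libraries were thus below the lowest vehicle library, and the treated mice differed little among themselves. Vehicle kidneys averaged 70.1 ± 11.9 CPM (SD, n = 3) and treated kidneys 32.9 ± 3.19 CPM (SD, n = 4), or 47.0% of the vehicle level. The log2 fold change was -1.09 ± 0.12 (SE; edgeR adjusted p = 0.009), and the call held without any single library (adjusted p up to 0.0373). Of its exon positions 1.19% are shared with Phrf1 on the other strand.

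Irf3, its constitutively expressed relative (ENSMUSG00000003184; chromosome 7, 44997648 to 45002848, plus strand), did not pass the test. Vehicle libraries had 32.3, 31.2 and 36.4 CPM and AZD1152 libraries 35.5, 28.2, 30.9 and 34.6 CPM. The groups overlapped over most of their range. The log2 difference was -0.04 ± 0.11 (SE; edgeR adjusted p = 0.846).

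Irf9, the DNA-binding subunit of ISGF3 (ENSMUSG00000002325; chromosome 14, 55603571 to 55610030, plus strand), also fell. It had 53.4, 58.2 and 55.3 CPM with vehicle and 39.0, 32.2, 36.5 and 41.4 CPM with AZD1152. The vehicle libraries were close to each other, with a coefficient of variation of 4.37%, and clear of all treated ones. The mean went from 55.7 ± 2.43 to 37.3 ± 3.91 CPM (SD), a log2 fold change of -0.58 ± 0.09 (SE; edgeR adjusted p = 0.0127). Without vehicle replicate 3 the adjusted p was 0.0508. Irf9 shares 2.28% of its exon positions with Rnf31 on the same strand.

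Irf5, the factor below Toll-like receptors (ENSMUSG00000029771; chromosome 6, 29526625 to 29541871, plus strand), fell as well. The vehicle values were 28.2, 20.0 and 25.0 CPM, and those with AZD1152 were 14.2, 10.1, 13.99 and 16.2 CPM. No treated library reached the lowest vehicle one. The log2 difference was -0.84 ± 0.17 (SE; edgeR adjusted p = 0.0246), with treated kidneys at 55.7% of the vehicle mean. The call was lost without vehicle replicate 1 or 3 (adjusted p = 0.0803 and 0.0929). Tnpo3 on the other strand covers 14.2% of the Irf5 exon positions, and the counting is not stated to use strand.

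Irf1, the interferon gamma responsive activator (ENSMUSG00000018899; chromosome 11, 53770014 to 53778374, plus strand), was among the called genes. It measured 86.2, 117.8 and 89.5 CPM with vehicle and 55.7, 31.5, 63.7 and 57.1 CPM with AZD1152. Vehicle replicate 2 was the highest of the 7 libraries and AZD1152 replicate 2 the lowest, and the groups did not overlap. The mean fell from 97.8 ± 17.4 to 52.0 ± 14.1 CPM (SD), a log2 fold change of -0.91 ± 0.21 (SE; edgeR adjusted p = 0.0381).

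Irf2, which binds similar sites (ENSMUSG00000031627; chromosome 8, 46739732 to 46847458, plus strand), did not pass the test. It had 31.9, 33.2 and 32.4 CPM with vehicle and 27.5, 24.9, 31.4 and 29.4 CPM with AZD1152. The groups lay side by side without overlap, separated by less than 1 CPM. For Irf2 the log2 fold change was -0.20 ± 0.10 (SE; edgeR adjusted p = 0.236).

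Irf8, a factor of monocytes, dendritic cells and B cells (ENSMUSG00000041515; chromosome 8, 120736358 to 120756694, plus strand), fell from 70.8 ± 9.58 to 44.2 ± 9.07 CPM (SD). Single libraries had 60.6, 79.6 and 72.1 CPM with vehicle and 48.9, 31.2, 51.7 and 44.8 CPM with AZD1152. AZD1152 replicate 2 stood lowest, as it did in 6 of the 8 factors. The log2 fold change was -0.68 ± 0.16 (SE; edgeR adjusted p = 0.0404). Irf1 and Irf8 were both no longer called when any vehicle library, AZD1152 replicate 1 or AZD1152 replicate 4 was left out. The adjusted p then ran up to 0.101 for Irf1 and 0.135 for Irf8, both without vehicle replicate 3.

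Irf4, a factor of plasma cells and activated lymphocytes (ENSMUSG00000021356; chromosome 13, 30749226 to 30766976, plus strand), was the least abundant of the 8. It had 2.97, 8.45 and 11.2 CPM with vehicle and 8.77, 2.52, 1.09 and 3.05 CPM with AZD1152. Vehicle replicate 1 lay among the treated libraries and AZD1152 replicate 1 among the vehicle ones. The log2 fold change was -0.96 ± 0.63 (SE; edgeR adjusted p = 0.394). It was -1.77 without AZD1152 replicate 1 and -0.56 without vehicle replicate 3, and the adjusted p stayed between 0.0788 and 0.771 whichever library was left out. The coefficient of variation was 55.4% with vehicle and 87.6% with AZD1152.

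Levels of different genes were compared as CPM per kilobase of annotated exon. With vehicle Irf1 was highest at 24.6 ± 4.36 CPM per kilobase (SD), followed by Irf7 at 18.6 ± 3.14, and the libraries of neither overlapped with the next in order. Irf9, Irf8 and Irf3 came next at 10.3 ± 0.452, 10.03 ± 1.36 and 9.67 ± 0.795 CPM per kilobase and overlapped with each other. Irf5 had 8.40 ± 1.41 CPM per kilobase and overlapped with Irf8 and Irf3. Irf2 at 4.40 ± 0.0902 and Irf4 at 1.54 ± 0.851 CPM per kilobase overlapped with no other factor. With AZD1152 Irf1 averaged 13.1 ± 3.54 CPM per kilobase and Irf3, at 9.39 ± 0.978, came second, ahead of Irf7 at 8.72 ± 0.846, and the libraries of these 3 overlapped. Irf2 and Irf4 remained the seventh and eighth in order. When the longest coding transcript gave the length, Irf1 stayed first and Irf4 last in both groups, while Irf8 moved ahead of Irf9 and Irf2 ahead of Irf5 in both, and Irf8 ahead of Irf7 with AZD1152.

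Ratios within each library set an inducible factor against a related one. The ratio of Irf7 to Irf3 was 1.31, 0.87 and 1.00 on the log2 scale with vehicle and 0.02, 0.15, -0.08 and 0.02 with AZD1152. Treated kidneys thus held about as many counts of Irf7 as of Irf3, and vehicle kidneys 2.09 counts of Irf7 for each of Irf3. The log2 ratio differed by -1.03 between the groups. The ratio of Irf1 to Irf2 was 1.43, 1.82 and 1.46 with vehicle and 1.01, 0.34, 1.02 and 0.95 with AZD1152 on the log2 scale, a difference of -0.74. For Irf8 to Irf4 the log2 ratios overlapped, at 4.29, 3.22 and 2.68 with vehicle and 2.46, 3.57, 5.42 and 3.83 with AZD1152, and differed by 0.42. In an exact permutation test over the 7 libraries (two-sided, on the absolute difference of means) p was 0.0286, 0.0286 and 0.686 for Irf7/Irf3, Irf1/Irf2 and Irf8/Irf4. Adjusted over these 3 ratios by Benjamini-Hochberg the exact permutation p was 0.0429, 0.0429 and 0.686. The 35 regroupings allow no p below 0.0286. These pairs were chosen with the fall of Irf7 known.

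**Figure D2:**
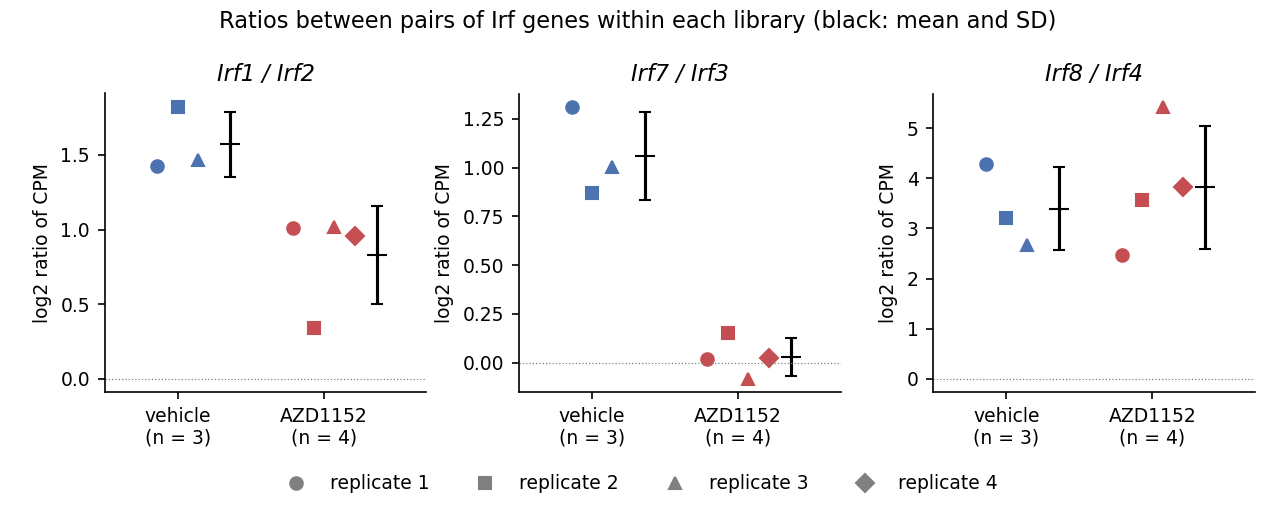
Log2 ratios of CPM between 3 pairs of factors in each library (vehicle n = 3, AZD1152 n = 4, symbols for replicates, mean and SD in black, dotted line at equal counts). Irf7 to Irf3 lies between 0.87 and 1.31 with vehicle and between -0.08 and 0.15 with AZD1152, Irf1 to Irf2 is lower in all treated libraries, and Irf8 to Irf4 overlaps between the groups.

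T cell and macrophage markers were lower in the same kidneys. Of 14 T cell markers 10 were called lower in edgeR and 14 in DESeq2, and all 14 estimates were negative (median log2 fold change -1.46). Their summed level was 92.97 to 166.8 CPM with vehicle and 25.1 to 59.3 CPM with AZD1152. Lat, which links the T cell receptor to its signalling, had -1.77 ± 0.20, and Cd3g and Lck had -1.51 ± 0.25 and -1.49 ± 0.26 (SE; edgeR adjusted p = 0.009, 0.0139 and 0.0175). Of 15 macrophage markers 9 were called lower in edgeR and 14 in DESeq2, and all 15 estimates were negative. Their median was -0.94, with summed levels of 1085 to 1466 CPM with vehicle and 549.4 to 811.7 CPM with AZD1152. Among these, Fcgr1, an Fc receptor for immunoglobulin G, had -1.60 ± 0.24, and Lyz2 and Tyrobp had -1.13 ± 0.21 and -1.07 ± 0.20 (SE; edgeR adjusted p = 0.0111, 0.0191 and 0.0197). No marker of either list was at 0 in all libraries. Leaving out vehicle replicate 3 ended the calls of Cd3g, Lck, Lyz2 and Tyrobp, and leaving out vehicle replicate 1 that of Tyrobp. T cell markers called lower numbered 1 without vehicle replicate 3, 3 without vehicle replicate 2 or AZD1152 replicate 4 and 5 without AZD1152 replicate 3, and macrophage markers 2 without vehicle replicate 3 and 3 without vehicle replicate 1.

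The factors and these markers were then set against each other within libraries, as log2 CPM of a factor minus the mean log2 CPM of the 29 T cell and macrophage markers. The marker mean itself was lower by 1.21 on the log2 scale in treated kidneys, with 4.24 to 4.47 in vehicle and 2.64 to 3.42 in treated libraries. Relative to it Irf7 differed by 0.13 between treated and vehicle kidneys, Irf1 by 0.27 and Irf5 by 0.37, and the libraries of the groups overlapped for each of these. Irf8 differed by 0.52, Irf9 by 0.63, Irf2 by 1.01 and Irf3 by 1.17, each higher relative to the markers in every treated library than in any vehicle library. Irf4 differed by 0.09 with a wide spread. In the exact permutation test p was 0.0286 for Irf2, Irf3 and Irf8, 0.0571 for Irf9, 0.0857 for Irf1 and Irf5, 0.657 for Irf7 and 0.971 for Irf4, and 0 of the 8 passed after adjustment over the 8 comparisons (lowest adjusted exact p 0.0762). The 35 regroupings allow no p below 0.0286, the value of Irf2, Irf3 and Irf8. These could not pass the adjustment unless more factors reached that minimum, so the lack of a pass is not evidence of no difference. The size depended on the marker set. Against macrophage markers alone and T cell markers alone the differences were 0.05 and 0.50 for Irf1, 0.15 and 0.60 for Irf5, and 0.30 and 0.75 for Irf8. They were 0.41 and 0.86 for Irf9, -0.08 and 0.37 for Irf7, and -0.12 and 0.33 for Irf4. Against macrophage markers alone the groups overlapped for Irf8 and Irf9 (adjusted exact permutation p = 0.8 and 0.305). Against T cell markers alone the adjusted exact permutation p was 0.0571 for both. The part of leukocyte number in the lower Irf levels was not tested.

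Within groups the order of libraries differed among the factors. Irf1 and Irf8 were highest in vehicle replicate 2, lowest of the vehicle libraries in replicate 1 and lowest of all in AZD1152 replicate 2, as was the T cell marker sum, while their highest treated library was replicate 3 and that of the T cell sum replicate 1. Irf2, Irf9 and the B and plasma cell marker sum shared this order of the vehicle extremes. The dendritic cell marker sum was 107.3, 120.95 and 115.2 CPM with vehicle and 93.0, 83.7, 94.0 and 92.1 CPM with AZD1152. That sum had the same highest and lowest library in each group as Irf1 and Irf8. Irf5 and Irf7 had the opposite order among vehicle libraries, highest in replicate 1 and lowest in replicate 2, as did the macrophage marker sum of 1466, 1085 and 1227 CPM. Among treated libraries Irf5 was highest in replicate 4, as was the sum, but the mean log2 CPM of the same markers was highest in replicate 3. Irf7 was highest in replicate 1, where sum and mean were lowest. The summed level of the 12 markers of B and plasma cells was 135.6, 815.7 and 664.7 CPM with vehicle and 537.5, 141.3, 43.3 and 130.2 CPM with AZD1152. Jchain, the joining chain of secreted antibodies, named after its values were seen, made up 44.1% to 92.1% of this sum. In Irf4 as in the sum, vehicle replicate 1 was the lowest vehicle library, and AZD1152 replicate 1 the highest and replicate 3 the lowest treated library. The highest vehicle library was replicate 3 for Irf4 and replicate 2 for the sum. Cd79b and Sdc1 were lowest in AZD1152 replicate 2. In edgeR 0 of the 9 tested markers of that list were called in either direction, although 3 had an unadjusted p under 0.05, and DESeq2 called 2 lower. Without AZD1152 replicate 1 edgeR called Cd22 lower (log2 fold change -0.92, adjusted p = 0.0423). Its members with the smallest p were Cd22, Cd79b and Sdc1, with log2 fold changes of -0.76 ± 0.21, -1.09 ± 0.36 and -0.55 ± 0.20 (SE). These orders are descriptions over 7 libraries.

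**Figure D3:**
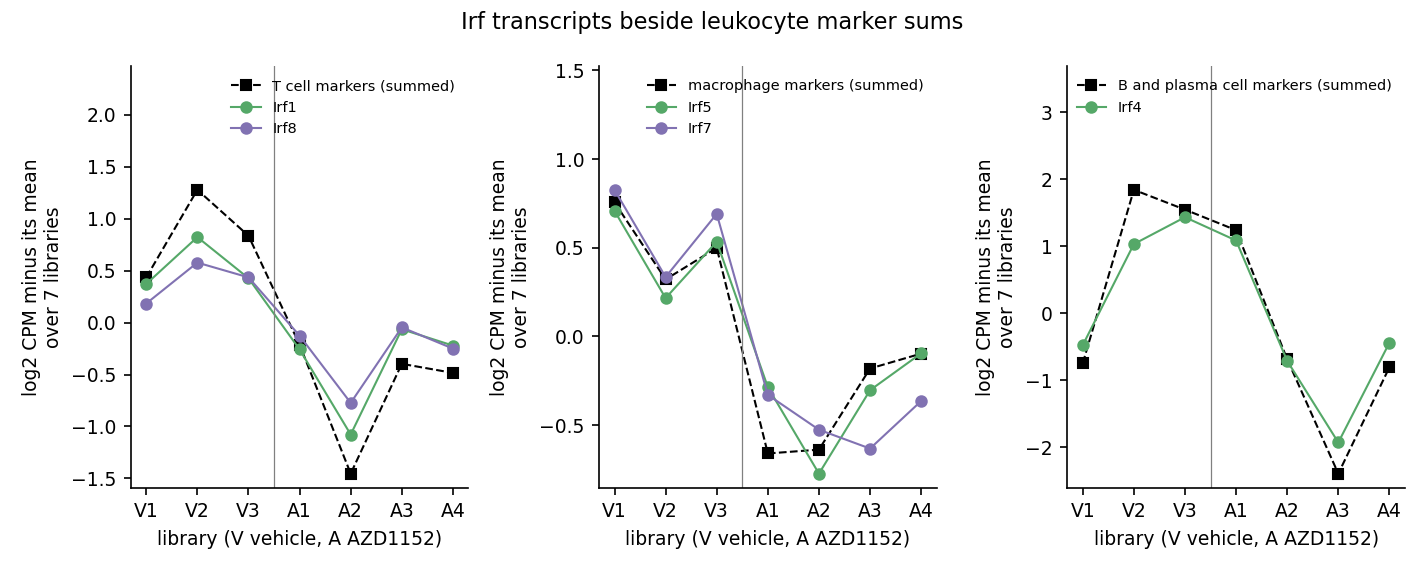
Log2 CPM of 5 factors and of summed leukocyte markers (dashed), each minus its own mean over 7 libraries, in vehicle (V) and AZD1152 (A) libraries. Irf1 and Irf8 peak in vehicle replicate 2 with the T cell sum, Irf5 and Irf7 in vehicle replicate 1 with the macrophage sum, and Irf4 is high in vehicle replicates 2 and 3 and AZD1152 replicate 1 with the B and plasma cell sum, of which Jchain is 44.1% to 92.1%. The B and plasma cell sum also peaks in vehicle replicate 2, as does the dendritic cell sum, which is not drawn.

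For each factor the genes with the most similar profile were taken among 12401 genes, by the root mean square distance of centred log2 CPM over the 7 libraries. For Irf7 these were Dhx58, a relative of the RNA sensors, and the interferon-induced Ifi44, at distances of 0.08 and 0.10 on the log2 scale. For Irf5 they were Csf1r, the receptor of the macrophage growth factor, and Themis2, at 0.06 and 0.08. H2-T23 and H2-D1, MHC class I genes of a family with near-identical copies, were closest to Irf1 at 0.10 and 0.12, and Icam1 and Apobec3 to Irf8 at 0.08 and 0.09. For Irf4 they were Igkv3-1, an immunoglobulin light chain segment, and Cacna1h, at 0.31 and 0.41. Irf9 had Cyp7b1 at 0.04, Irf2 had Plcg2 and Pgm2 at 0.04 and 0.05, and Irf3 had Tsc22d4 and Top3b at 0.03 and 0.04. Among the factors themselves, Irf2 and Irf3 were closest to each other (0.15), as were Irf1 and Irf8 (0.17) and Irf5 and Irf7 (0.21). The factor closest to Irf9 was Irf8 (0.18). Irf4 was no closer than 0.93 to any other.

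Genes that act before the factors were lower in part. The list of sensors, adaptors and kinases upstream had 7 of 22 members called lower and 0 higher, at a median of -0.44 (log2). Without vehicle replicate 3 the number called lower was 3. Ikbke, a kinase that phosphorylates Irf3 and Irf7, had 12.1, 12.2 and 12.8 CPM with vehicle and 4.42, 4.05, 5.56 and 6.16 CPM with AZD1152. Its groups were far apart, with a log2 fold change of -1.29 ± 0.16 (SE; edgeR adjusted p = 0.00951). The RNA sensors Ifih1 (MDA5) and Ddx58 (RIG-I) also fell, with log2 fold changes of -0.81 ± 0.11 and -0.55 ± 0.09 (SE; edgeR adjusted p = 0.0104 and 0.0128). The interferon genes themselves were barely detected. Of 12 such genes 9 had 0 counts in all 7 libraries, a limit of 0.204 CPM in the library with the fewest counts. Ifnb1 and Ifnk had 1 count in a single library each, and Ifng had 4, 14 and 8 counts with vehicle and 6, 2, 4 and 3 with AZD1152, too few to be tested. Ikbke, Ifih1 and Ddx58 kept their calls without any single library.

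Among receptors, JAK kinases and STAT factors 3 of 11 members were called lower and 0 higher, at a median of -0.28 (log2). The number was 1 when vehicle replicate 1, vehicle replicate 3, AZD1152 replicate 1 or AZD1152 replicate 4 was left out. Stat2, the partner of Irf9, had 67.5, 58.9 and 63.7 CPM with vehicle and 39.0, 31.8, 38.0 and 41.9 CPM with AZD1152. Every treated library was far below the vehicle ones, and the log2 fold change was -0.75 ± 0.10 (SE; edgeR adjusted p = 0.00951). Stat3, which carries the signals of several interleukins, had -0.63 ± 0.15, and Ifngr1, a chain of the interferon gamma receptor, had -0.48 ± 0.12 (SE; edgeR adjusted p = 0.0393 and 0.0469). Stat3 was no longer called when any vehicle library, AZD1152 replicate 1 or AZD1152 replicate 4 was left out. The Ifngr1 call held only without vehicle replicate 2 or AZD1152 replicate 3. In the list of feedback genes and proteins that bind the factors 1 of 15 members was called lower and 0 higher (median -0.13). That count is near the 4.81% of all genes tested that were called lower. The called member was Socs1, a feedback inhibitor of JAK kinases, at -1.38 ± 0.33 (SE; edgeR adjusted p = 0.0402). Its call was lost without any library except AZD1152 replicate 1. Socs1 is also counted among the targets of Irf1 and interferon gamma. Ptpn6 and Trim21 had -0.48 ± 0.13 and -0.56 ± 0.16 (SE; edgeR adjusted p = 0.0528 and 0.0596). Without AZD1152 replicate 3 Ptpn6 was called lower (adjusted p = 0.0479).

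Known targets of the factors were counted in 2 lists. Of 20 targets of Irf1 and interferon gamma 17 were called lower and 0 higher, at a median of -1.25 (log2). Cxcl11, a chemokine for T cells, had 12.9, 14.8 and 19.6 CPM with vehicle and 3.09, 2.06, 4.02 and 2.76 CPM with AZD1152. No library came near the other group, and the log2 fold change was -2.40 ± 0.23 (SE; edgeR adjusted p = 0.00598). The pseudogene Gm2673 on the other strand covers 41.7% of its exon positions. Gbp3, a guanylate-binding protein, and Psmb10, of the immunoproteasome, had -1.51 ± 0.20 and -1.14 ± 0.16 (SE; edgeR adjusted p = 0.00951 and 0.00965). Il15, named after its value was seen, was the single member with a positive estimate, 0.32 ± 0.14 (SE; edgeR adjusted p = 0.199). The number called lower was 4 without vehicle replicate 3, 7 without vehicle replicate 1 or 2 and 11 without AZD1152 replicate 3.

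Of 20 targets of ISGF3 and Irf7 12 were called lower and 0 higher, with a median of -1.01 and all 20 estimates negative. The fall was not uniform, and in 13 of the 20 every treated library lay below every vehicle library. Ifit1 and Cmpk2, named after their values were seen, had -0.20 ± 0.33 and -0.15 ± 0.14 (SE; edgeR adjusted p = 0.758 and 0.562). In AZD1152 replicate 1 they had 30.4 and 51.7 CPM, above every vehicle library (up to 22.4 and 50.4 CPM). Oasl2 had the smallest p at -1.48 ± 0.13, followed by Ifi44 and Rtp4 at -0.99 ± 0.12 and -1.06 ± 0.14 (SE; edgeR adjusted p = 0.00374, 0.00951 and 0.00951). Gm45338 shares 13.9% of the Rtp4 exon positions on the same strand. These 3 genes, Cxcl11, Gbp3 and Psmb10 kept their calls without any single library. Both lists hold genes that leukocytes express, and the T cell and macrophage markers fell as described above.

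Partners of Irf4 and Irf8 had 4 of 16 members called lower and 0 higher, at a median of -0.49 (log2). The number was 1 without vehicle replicate 1 or 3, and 2 without vehicle replicate 2 or AZD1152 replicate 2 or 4. Ikzf1 (Ikaros) had 25.3, 30.5 and 27.0 CPM with vehicle and 11.6, 8.70, 11.7 and 12.5 CPM with AZD1152. These values gave a log2 fold change of -1.31 ± 0.14 (SE; edgeR adjusted p = 0.00687), called without any single library too. Batf, an AP-1 partner of Irf4, and Spi1, which encodes PU.1, had -1.30 ± 0.27 and -0.99 ± 0.24 (SE; edgeR adjusted p = 0.0273 and 0.0426). Leaving out any vehicle library ended both of these calls, as did AZD1152 replicate 1 or 2 for Spi1 and AZD1152 replicate 4 for Batf.

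Of 10 tested dendritic cell markers 0 were called lower, although 6 had an unadjusted p under 0.05 in either direction, and DESeq2 called 2 lower. Without AZD1152 replicate 3 edgeR called 1 lower. Xcr1, which marks the Irf8-dependent conventional type, and Clec10a had -0.94 ± 0.27 and -1.21 ± 0.36 (SE; edgeR adjusted p = 0.0697 and 0.0742). Siglech, which marks plasmacytoid cells in mice, was higher, with 9, 9 and 5 counts with vehicle and 21, 25, 22 and 12 with AZD1152. The other 9 of the 10 tested members of this list had negative estimates. Runx2 and Tcf4 of the same list, named after their values were seen, had -1.08 ± 0.33 and -0.12 ± 0.08 (SE; edgeR adjusted p = 0.0775 and 0.42). Whether plasmacytoid cells differed in number was not tested. Siglech had a log2 fold change of 1.55 ± 0.37 (SE; edgeR adjusted p = 0.0387), at a mean of 1.30 CPM in treated kidneys, and the call was lost without any library except AZD1152 replicate 4. In edgeR 0 of 6 tested neutrophil markers were called, although 2 had an unadjusted p under 0.05, and DESeq2 called 1 lower. Without AZD1152 replicate 3 edgeR called 2 lower, S100a8 at -1.76 and Csf3r at -0.99 (adjusted p = 0.0291 and 0.0362). With all libraries S100a8, Csf3r and Mmp9 had -1.01 ± 0.50, -0.74 ± 0.25 and -0.90 ± 0.39 (SE). All 12 markers of kidney epithelium were detected. Of these, 3 were called higher and 0 lower. Slc34a1 and Slc5a2, the phosphate and glucose carriers of the proximal tubule, had 0.67 ± 0.15 and 0.75 ± 0.14 (SE). Atp6v1g3, of intercalated cells, had 0.53 ± 0.14 (SE). The edgeR adjusted p was 0.033, 0.0207 and 0.0467 for Slc34a1, Slc5a2 and Atp6v1g3. None of these 3 calls held when vehicle replicate 1, vehicle replicate 3 or AZD1152 replicate 4 was left out, and that of Atp6v1g3 was lost without any single library. The summed level of the 12 was 11883 to 12665 CPM with vehicle and 12875 to 15061 CPM with AZD1152. Much of this sum was Slc34a1, at a mean of 3108 ± 638 CPM with vehicle and 4961 ± 330 CPM with AZD1152 (SD). Estimates were negative for 4 of the 12, such as Umod at -0.33 ± 0.23 (SE; edgeR adjusted p = 0.42), named after its value was seen. The sum thus does not describe kidney epithelium as a whole.

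**Figure D4:**
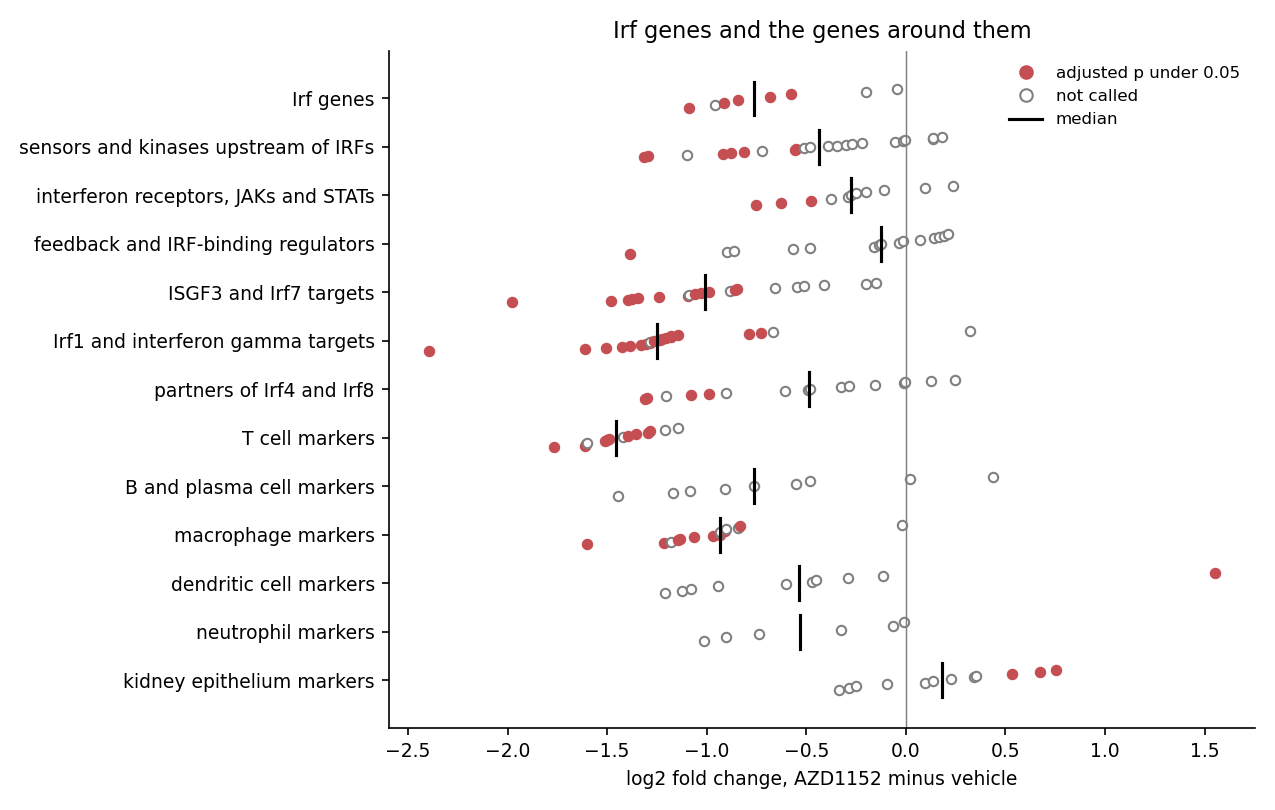
Log2 fold changes (AZD1152 minus vehicle) of the 8 factors and of the tested genes of 12 lists, 1 point per gene, filled where the adjusted p is under 0.05, with the median of each list as a black bar. The factors have a median of -0.76, the targets of Irf1 and interferon gamma -1.25, those of ISGF3 and Irf7 -1.01, and kidney epithelium markers 0.18.

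Over all 15774 genes 476 were higher and 759 lower, so that 38.5% of the calls were higher. Scaled by total counts the split was 232 and 1482 (13.5% higher) with the median of all genes at -0.151, and in DESeq2 it was 954 and 1138. Irf1, Irf5, Irf7, Irf8 and Irf9 were called under each of these. Mitochondrial genes took 8.03% to 9.002% of the counts with vehicle and 9.41% to 11.6% with AZD1152. The highest share was that of AZD1152 replicate 2, which also had the lowest TMM factor (0.921). This library was the lowest treated one in 6 of the 8 factors. The part of these differences in the results was not tested. Totals were 14692113 to 17036862 counts per library, and each factor had at least 17 counts in every library.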

How the data were processed

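Kidney RNA of 7 mice was measured by poly(A)-selected RNA sequencing. Raw read counts per gene were deposited by the authors without normalization. Per the submitters' processing notes, the build was GRCm38 and CASAVA, HISAT2 2.0.5, DESeq2 and DESeq were used; the counter, strand setting and annotation release are not given in the sources used here. Groups came from sample titles, and the design text counts separate mice.

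Gene names, positions, exon lengths and overlaps came from GENCODE M21 (GRCm38), which named 53360 of 53465 genes. Promoters came from RefSeq (GRCm38.p6), where all 8 members matched. Counts were filtered with filterByExpr, scaled by TMM and tested for the group effect by the quasi-likelihood method of edgeR (version 4.0.16, under R 4.3.3), two-sided, with Benjamini-Hochberg adjustment over 15774 genes and a threshold of 0.05. Standard errors are the log2 fold change divided by the root of F. Log2 CPM used a prior count of 2. The floor for 0 counts was 3 counts, or 0.176 to 0.204 CPM, and covers counting error only. The members, the 13 lists and the tests were chosen with earlier results of these data known. Named genes were the members, the 3 genes of each list with the smallest p, and the 2 genes nearest each member in profile, the latter among genes averaging 2 CPM or more whose symbols are not clone or model names. A few genes are not reported here, and the lists were counted without them. Scripts were tested on simulated counts. Alternatives were other scalings, filters, DESeq2 1.42.0, a replicate block, each library left out, a prior count of 0.5 and, chosen after seeing the data, another gene length and a fit of 6 libraries. Across 21 pairs of libraries the smallest ratio of chi-square to its degrees of freedom was 9.97, so none was a copy of another.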

Additional observations from a re-analysis of the deposited data

Results flagged for a closer look

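Among 82 results tested in the 4 AZD1152 libraries, 4 had a single library far from the other 3, and chance alone flags about 1 in 20. AZD1152 replicate 2 was the low library in 2 of them. Its log2 ratio of Irf1 to Irf2 was 0.34 where the others had 0.95 to 1.02 and its Cd3g level was 3.12 CPM beside 4.96 to 5.30. AZD1152 replicate 1 was the high library for Socs1, with 4.235 CPM beside 2.06 to 2.43, and for Cd22, with 3.93 CPM beside 2.56 to 2.79. Vehicle libraries were too few for this test.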

How the results depend on the processing

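Irf1, Irf5, Irf7, Irf8 and Irf9 were the 5 members called lower under RLE, upper-quartile, total-count and reduced TMM scaling, both other filters and DESeq2, and 0 members were called higher under any alternative. Leaving out 1 library gave 1 to 5 members called lower, with 60 to 475 genes higher and 163 to 619 lower overall. Total counts gave 232 higher and 1482 lower genes, and DESeq2 954 higher. The replicate block gave 2 members lower (Irf5 and Irf7), 64 genes higher and 148 lower, and the same 6 libraries without it 3 members, 107 and 336. Under the block 4 of the Irf1 and interferon gamma targets and 6 of the ISGF3 and Irf7 targets were called lower. DESeq2 called 5 of the feedback genes lower where edgeR called 1. Deviations from group means correlated at -0.288, 0.209 and -0.119 for same-numbered libraries and at -0.232 to 0.299 for differently numbered ones. The numbers thus show no sign of pairing, but so few libraries, each taken against its own group mean, cannot exclude it. Without 1 library the log2 ratio of Irf1 to Irf2 differed by -0.81 to -0.58 and that of Irf7 to Irf3 by -1.13 to -0.91, where the adjusted exact p cannot fall under 0.05, and that of Irf8 to Irf4 by -0.11 to 0.87. Likewise Irf4 minus the markers ran from -0.42 to 0.63 and Irf7 from -0.065 to 0.30, and with macrophage markers alone they were -0.12 and -0.084. The log2 fold change of Irf3 ran from -0.093 to 0.026 without 1 library, that of Tsc22d4 from -0.12 to 0.033 and that of Top3b from -0.038 to 0.10. Top3b had -0.13 with total counts, -0.0423 under the replicate block and -0.038 in the same 6 libraries. The cause of these changes was not tested. Irf4, at 17 to 201 counts, had the least depth of the members.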
